A study of Homo sapiens with 6 samples.

Results

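The mRNAs of 9 transcription factors that mark or build the Merkel cell lineage were followed through RNA immunoprecipitation sequencing (RIP-seq): *ATOH1*, *SOX2*, *POU4F3*, *INSM1*, *ISL1*, *NEUROD1*, *HES6*, *LHX3* and *GFI1*. They were chosen by name, with earlier results of these data known, and each matched 1 of the 60655 genes of the deposited count table. The cells were WaGa, an established Merkel cell carcinoma (MCC) line that carries Merkel cell polyomavirus, of genotype WT and without treatment. RNA was recovered with 5 µg of an antibody against IGF2BP3, which the labels call IMP3, or with 5 µg of IgG as the negative control, and 3 libraries were sequenced per group. All 6 libraries came from 1 cell line, so the values describe WaGa alone, and no library of RNA before the IP was analysed here. The comparison asked whether the lineage factor mRNAs held a larger share of the RNA recovered with IGF2BP3 than of that recovered with IgG. IGF2BP3 is an RNA-binding protein that regulates the stability and translation of its mRNA targets. Libraries were scaled to each other with no measure of total RNA recovered, so a rise shared by most RNAs would not show.

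Merkel cells are the touch-sensitive neuroendocrine cells of the epidermis. The bHLH factor ATOH1 is required for them to form, SOX2 and ISL1 act in their maturation, and POU4F3, LHX3 and GFI1 are factors that Merkel cells share with inner ear hair cells. INSM1 is a zinc finger repressor that promotes neuroendocrine differentiation and a diagnostic marker of MCC. NEUROD1 and HES6 are further bHLH proteins, the first a neuronal activator and the second a partner and antagonist of the HES repressors that act downstream of Notch.

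The libraries held 9758759 to 14886414 counts. In both groups replicate 1 stood apart from replicates 2 and 3. The chi-square per degree of freedom over genes was 16.35 to 19.69 between replicate 1 and the other libraries of its group, against 2.13 between IgG IP replicates 2 and 3 and 3.06 between IGF2BP3 IP replicates 2 and 3. The results that moved with replicate 1 are therefore also given without both replicate 1 libraries. Of the markers of MCC, 7 of 7 passed the filter on low counts. Their means in IgG IP ran from 17.0 TPM (the share of all transcripts, scaled by length) for *NCAM1* to 664 for *CHGA*. *KRT20* was at 548 TPM, and the viral large T antigen had 2750 to 4830 counts in every library. *KRT1*, *KRT14*, *MLANA*, *TYR*, *PTPRC* and *COL3A1*, markers of keratinocytes, melanocytes, leukocytes and fibroblasts, were at 0 counts in all 6. Other markers of these cells were detected, with 479 to 762 counts of *DCN*, 135 to 177 of *KRT10*, 4 to 11 of *KRT5*, 7 to 18 of *DCT* and 0 to 13 of *PMEL*. Among all genes, 169 of the 14507 tested rose in IGF2BP3 IP at a fold change of at least 1.5 and an adjusted p under 0.05 (edgeR, Benjamini-Hochberg), led by *HMGA1* at a log2 fold change of 1.54 (SE 0.12), and *ZMIZ1* followed at 1.51 (SE 0.14). Leaving out a single library gave 0 to 244 such genes, the lowest count without IGF2BP3 IP replicate 2.

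The 9 genes lie on 7 chromosomes and have compact transcripts. In the canonical transcripts (GRCh38, GENCODE version 44), *ATOH1* is a single exon on chromosome 4 at 93828753 to 93830964 on the plus strand, *SOX2* a single exon on chromosome 3 at 181711925 to 181714436 on the plus strand, and *INSM1* a single exon on chromosome 20 at 20368104 to 20370949 on the plus strand. *POU4F3* has 2 exons on chromosome 5 at 146338839 to 146341728 on the plus strand, and *ISL1* has 6 exons on the same chromosome at 51383448 to 51394730 on the plus strand. *NEUROD1*, with 2 exons, and *HES6*, with 4, lie on chromosome 2 at 181668295 to 181680827 and at 238238267 to 238240662, both on the minus strand. *LHX3* has 6 exons on chromosome 9 at 136196250 to 136205128 on the minus strand, and *GFI1* has 7 on chromosome 1 at 92473043 to 92486925 on the minus strand. Single-exon transcripts made up 9.06% of those tested, and 3 of the 9 factors are of this kind. Transcript lengths ran from 1368 bases in *HES6* to 4554 in *GFI1*, and that of *GFI1* was the only one above the median of 3018 bases over all tested genes.

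Coding stretches of 3 factors are shown because these mRNAs mark the range of the comparison: *LHX3* had the highest fold change, *HES6* the lowest, and *POU4F3* the one nearest to 0. Each is 90 coding bases from a single exon, 5′ to 3′, placed where the most GGAC lie within an exon, and capitals mark GGAC, the core of the sequence in which m6A, the RNA modification that IGF2BP proteins are known to read, is found. The *LHX3* stretch is chr9:136198670-136198759 (minus strand, exon 5), that of *HES6* chr2:238238991-238239080 (minus strand, exon 4), and that of *POU4F3* chr5:146340002-146340091 (plus strand, exon 2).
LHX3: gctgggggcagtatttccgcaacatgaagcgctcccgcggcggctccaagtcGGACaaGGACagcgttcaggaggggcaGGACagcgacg
HES6: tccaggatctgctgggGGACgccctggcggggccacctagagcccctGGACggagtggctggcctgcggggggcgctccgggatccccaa
POU4F3: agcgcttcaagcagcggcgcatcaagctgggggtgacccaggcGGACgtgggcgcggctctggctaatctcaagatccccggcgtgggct
The stretches hold 3, 2 and 1 copies of the 4 letters, respectively. Over the whole coding sequence, *LHX3* has 14 copies in 1191 bases, or 11.8 per kb, which is above 98.0% of the 11866 tested genes with a coding sequence. *HES6* has 6 in 672 bases (8.93 per kb, above 91.2%) and *POU4F3* 2 in 1014 bases (1.97 per kb, above 11.3%), where the median is 4.62 per kb. The letters were counted on the sense strand only and are a description, not a mapped site. With windows across exon junctions allowed, at least 3 copies within 90 coding bases occur in 33.3% of tested genes. *LHX3* and *HES6* both reach 3 in this count, which is thus not rare.

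Levels were compared between genes in TPM, which divide by transcript length. These are levels in the RNA recovered by each IP, and their relation to levels in the cell was not tested. *HES6* was the most abundant of the 9 in IgG IP, at 516, 1042 and 969 TPM in replicates 1 to 3. The next was *POU4F3* at 429, 570 and 599 TPM, followed by *ATOH1* at 338, 539 and 538 TPM. These 3 mRNAs ranked 151, 252 and 279 in the whole table by mean IgG IP level. *INSM1* lay at 196, 343 and 355 TPM and *ISL1* at 131, 208 and 211 TPM. *GFI1* (64.5, 108 and 119 TPM) and *SOX2* (61.1, 109 and 107 TPM) were close to each other, and *LHX3* was the lowest of the detected members at 26.0, 28.1 and 31.4 TPM. For 8 of the 9, replicate 1 was thus the lowest of the IgG IP libraries in TPM, while *NEUROD1* was listed at 0 in replicates 1 and 2 and at 0.09 TPM in replicate 3. This depends on the scale: in counts normalized for depth, replicate 1 was the highest IgG IP library for *POU4F3* and *LHX3*.

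The same order held in IGF2BP3 IP. *HES6* was at 597, 897 and 925 TPM, *POU4F3* at 531, 609 and 613 TPM, and *ATOH1* at 358, 544 and 533 TPM. *INSM1* followed at 286, 400 and 403 TPM and *ISL1* at 130, 216 and 225 TPM. *GFI1* had 83.4, 122 and 115 TPM, *SOX2* 73.9, 110 and 103 TPM, and *LHX3* 43.5, 45.1 and 45.6 TPM, the last with every library above the highest IgG IP value. *NEUROD1* was listed at 0 in all 3. The order was identical in all 6 libraries except that *SOX2* lay above *GFI1* in IgG IP replicate 2. In IgG IP the ranges of neighbours were separate only between *ISL1* and *GFI1*, *SOX2* and *LHX3*, and *LHX3* and *NEUROD1*, and in IGF2BP3 IP also between *INSM1* and *ISL1*. The ranges of the other neighbours overlapped across libraries, although *HES6*, *POU4F3*, *ATOH1*, *INSM1* and *ISL1* kept this order within each library. The order depends on the length that is divided by: in counts per kb of the canonical transcript, *ATOH1* lay above *POU4F3* and *SOX2* above *GFI1*. The lengths implied by the deposited FPKM values and counts were 2078 to 2097 bases for *POU4F3* and 3065 to 3206 for *GFI1*, shorter than the annotated 2575 and 4554.

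**Figure D1:**
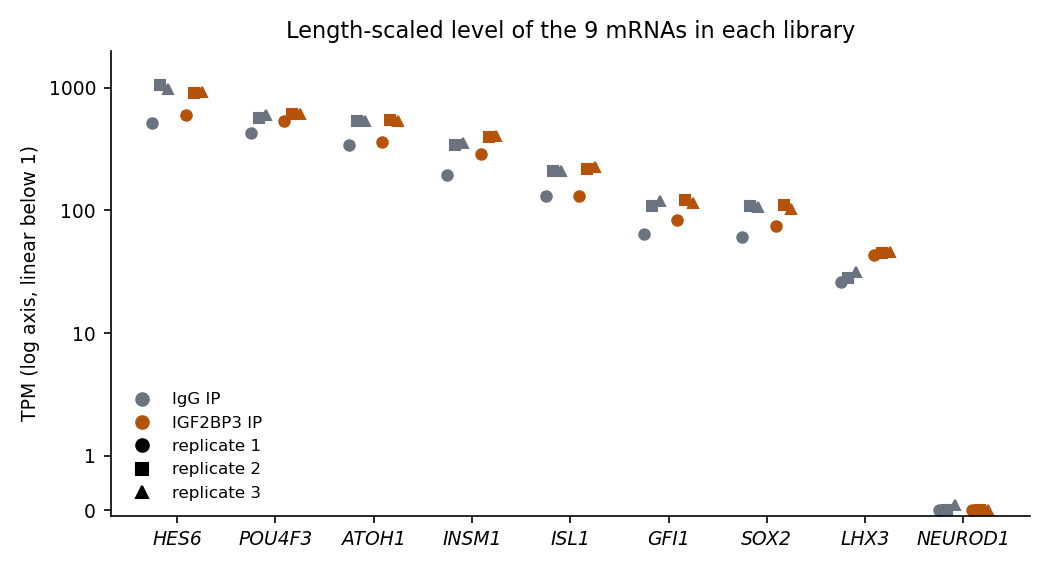
Level of the 9 mRNAs in each library, in TPM on a logarithmic axis that is linear below 1, with grey for IgG IP, orange for IGF2BP3 IP and a symbol for each replicate number. *HES6* is highest and *LHX3* lowest of the 8 detected mRNAs, replicate 1 is the lowest library of both groups for each of these 8, and *NEUROD1* lies at or next to 0.

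*NEUROD1*, the neuronal bHLH activator, was not detectable at this depth. It had 0 counts in 5 libraries and 2 counts in IgG IP replicate 3. With 3 counts as the limit that a count of 0 allows, its level was below 0.202 to 0.307 CPM (counts scaled to the library total) in the libraries at 0, where limits of this kind cover counting error only. The limits apply to RNA recovered by IP, and the level in the cell was not measured. In bulk libraries a low level in every cell and a few cells with the mRNA cannot be told apart. Its annotation shares 236 exonic bases with *CERKL* on the same strand, which had 15 to 44 counts. *NEUROD1* did not pass the filter on low counts and has no fold change, whereas the other 8 members had at least 734 counts in every library and all passed it.

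Of these 8 mRNAs, none passed the thresholds for a rise or a fall in IGF2BP3 IP (edgeR quasi-likelihood test, fold change of at least 1.5 and adjusted p under 0.05), where 1.16% of all tested genes rose and 0.0% fell. DESeq2 called none either, against 2.22% of genes higher and 0.0% lower, and neither did edgeR with the replicate number as a block, against 3.56% higher and 0.103% lower. Without both replicate 1 libraries none was called, against 3.18% higher and 0.0545% lower. At an unadjusted p under 0.05, 1 of the 8 (*LHX3*) differed, against 12.8% of all tested genes. The fitted change was above 0 in 4 and below 0 in 4, with a median log2 fold change of -0.04 beside -0.01 over all tested genes. For 7 of the 8 the 95% confidence interval of the change lay wholly within 1.5-fold in either direction. This held for 53.7% of all tested genes and for 91.1% of the 2863 that were at least as abundant as the lowest of the 8, and the share among the 8 was thus near that of genes with such counts. Together the 9 genes took 0.389% to 0.473% of the counts in the IgG IP libraries and 0.417% to 0.470% in those of IGF2BP3 IP.

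**Figure D2:**
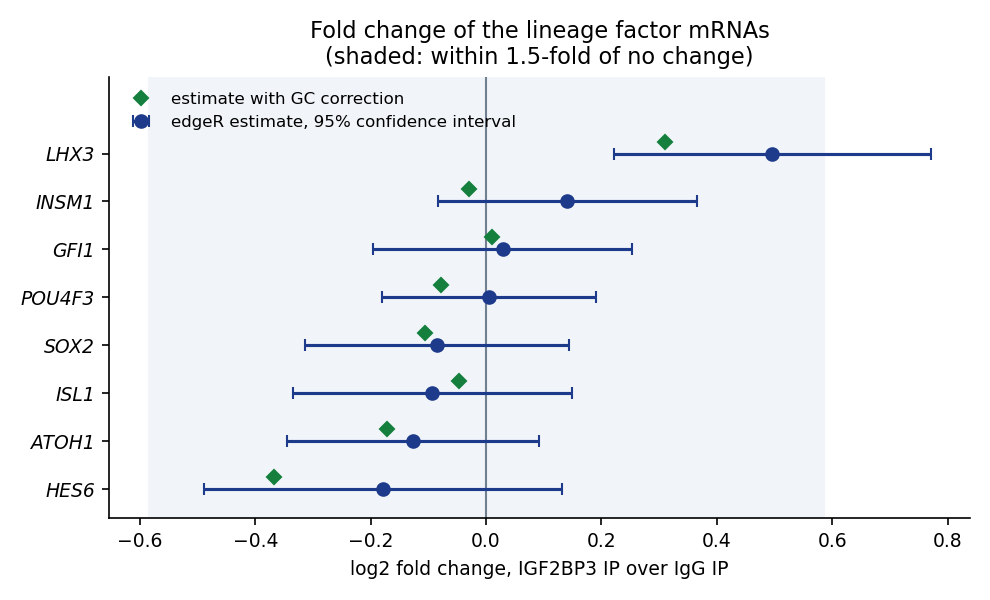
Fitted log2 fold change of the 8 tested mRNAs, IGF2BP3 IP over IgG IP (n = 3 libraries each), with blue points and bars for the edgeR estimate and its 95% confidence interval, green diamonds for the estimate after correction for GC content, and shading for changes within 1.5-fold. The interval of *LHX3* alone lies above 0 and extends past 1.5-fold, and those of the other 7 include 0.

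Among the bHLH factors, *ATOH1* and *HES6* lay below IgG IP in every same-numbered pair of libraries. The labels do not say whether libraries of the same number belong together. *ATOH1* had 869, 980 and 972 normalized CPM in replicates 1 to 3 of IgG IP, beside 764, 904 and 915 in those of IGF2BP3 IP. The groups overlap, since replicates 2 and 3 of IGF2BP3 IP lay above replicate 1 of IgG IP. The means were 940 ± 62.1 and 861 ± 84.3 normalized CPM (SD, n = 3), a log2 fold change of -0.13 (SE 0.10, 95% confidence interval -0.35 to 0.09), and edgeR gave an adjusted p of 0.634. *HES6* had 699, 973 and 934 normalized CPM in IgG IP and 673, 780 and 849 in IGF2BP3 IP, the widest spread of the 8 in IgG IP. Here too replicate 1 was the lowest library of each group and the groups overlap. Its log2 fold change was -0.18 (SE 0.14, 95% confidence interval -0.49 to 0.13, edgeR adjusted p = 0.636). A change in the same direction in all 3 pairs was seen downwards in 23.5% of tested genes.

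Although the labels give no pairing by number, the replicate number changed what the test found for *HES6*. With the number as a block its log2 fold change was -0.17 with an edgeR adjusted p of 0.0364, against 0.0882 for *ATOH1*, at a threshold that 16.2% of all tested genes passed in this fit when no minimum fold change was set. Without both replicate 1 libraries *HES6* was at -0.22 (edgeR adjusted p = 0.00627) and *ATOH1* at -0.10 (adjusted p = 0.208), where 9.51% of genes passed. Neither estimate for *HES6* came near a 1.5-fold change, a log2 of 0.585.

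*SOX2*, an HMG-box factor of Merkel and neural progenitor cells, had 171, 213 and 208 normalized CPM in IgG IP and 174, 197 and 188 in IGF2BP3 IP. All IGF2BP3 IP values lay within the range of IgG IP. The log2 fold change was -0.08 (SE 0.10, 95% confidence interval -0.31 to 0.14, edgeR adjusted p = 0.780). *SOX2* lies inside an intron of *SOX2-OT*, a noncoding RNA of the same strand that shares no exonic base with it and had 48 to 79 counts.

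*POU4F3*, the POU homeodomain factor that maintains hair cells, had 1058, 981 and 1035 normalized CPM in IgG IP and 1103, 971 and 1010 in IGF2BP3 IP. The highest and the lowest of the 6 libraries were both of IGF2BP3 IP, and replicate 1 was the highest of each group, opposite to *ATOH1*, *HES6* and *SOX2*. The means of 1025 ± 39.2 and 1028 ± 68.1 (SD, n = 3) gave a log2 fold change of 0.00 (SE 0.08, 95% confidence interval -0.18 to 0.19, edgeR adjusted p = 0.989), the narrowest interval of the 8. Its annotation shares 130 exonic bases with a readthrough gene of the same strand. That gene had 0 to 3 counts but was listed at 1.92 to 8.18 TPM.

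The LIM homeodomain factors differed from each other. *ISL1*, which in neurons and Merkel cells acts beside other lineage factors, had 375, 413 and 415 normalized CPM in IgG IP and 321, 391 and 416 in IGF2BP3 IP, and the highest library was thus of IGF2BP3 IP although its mean was lower. Its log2 fold change was -0.09 (SE 0.11, 95% confidence interval -0.33 to 0.15, edgeR adjusted p = 0.767).

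*LHX3*, known for its roles in the pituitary, motor neurons and hair cells, had 79.6, 64.3 and 69.6 normalized CPM in IgG IP and 116, 90.7 and 94.0 in IGF2BP3 IP. The groups did not overlap: the lowest value with the IGF2BP3 antibody was above the highest with IgG, as in 12.0% of all tested genes, while the opposite held for 8.69%. The gap between the groups was smaller than the range of either, while within the same-numbered pairs the log2 differences were alike, at 0.54, 0.50 and 0.43. The means of 71.1 ± 7.76 and 100.2 ± 13.8 normalized CPM (SD, n = 3) differed by a log2 fold change of 0.50 (SE 0.12, 95% confidence interval 0.22 to 0.77), or 1.41-fold (1.17 to 1.71). The edgeR p was 0.00271 unadjusted and 0.0995 adjusted over all tested genes, of which 1.4% had an adjusted p under 0.05 without a fold minimum. The exact permutation test, two-sided, gave p = 0.1, the smallest value that 3 libraries against 3 allow. *LHX3* lay above 92.5% of all tested genes in fold change. The groups were thus separate, but the difference did not pass the adjusted threshold, and its estimate was under the 1.5-fold minimum.

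The adjusted p of *LHX3* moved with the fit more than its fold change did. With the replicate number as a block the log2 fold change was 0.49 with an edgeR adjusted p of 5.1e-06, and DESeq2 gave 0.49 with an adjusted p of 0.0247, a threshold that 3.2% of the genes tested by DESeq2 passed without a fold minimum. Without both replicate 1 libraries it was 0.47 (edgeR adjusted p = 0.000139). In none of these fits did it reach 1.5-fold.

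Both SNAG-domain zinc finger repressors, *INSM1* and *GFI1*, overlapped between the groups. *INSM1* had 620, 749 and 775 normalized CPM in IgG IP and 751, 793 and 820 in IGF2BP3 IP. It was higher in IGF2BP3 IP in 3 of 3 same-numbered pairs, as were 25.1% of tested genes, with the low IgG IP replicate 1 making the largest of the pair differences. The log2 fold change was 0.14 (SE 0.10, 95% confidence interval -0.08 to 0.36) at an edgeR adjusted p of 0.604, or 0.0674 with the replicate block. *GFI1* had 243, 281 and 303 normalized CPM in IgG IP and 260, 294 and 289 in IGF2BP3 IP, where the highest library was of IgG IP. Its log2 fold change was 0.03 (SE 0.10, 95% confidence interval -0.20 to 0.25, edgeR adjusted p = 0.941). The exact permutation test over libraries gave two-sided p of 0.2 to 1.0 for the 7 members other than *LHX3*.

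**Figure D3:**
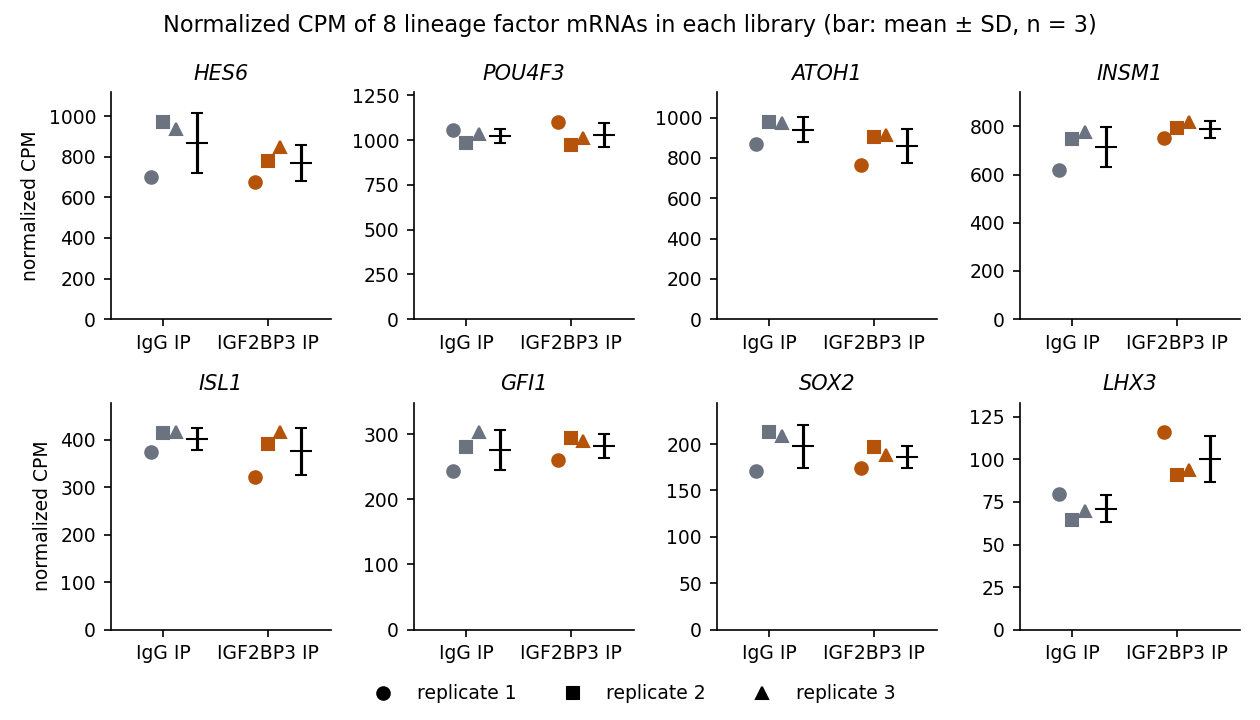
Normalized CPM of the 8 detected mRNAs in each library, on linear axes from 0 that differ between panels, with a symbol for each replicate number and bars for mean ± SD (n = 3 libraries). The groups are separate for *LHX3* alone, and replicate 1 is the lowest symbol of both groups in 6 panels and the highest in those of *POU4F3* and *LHX3*.

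GC content of the transcript moved with the fold change over all genes. The median log2 fold change rose from -0.12 below 40% GC to 0.20 at 60 to 65%, where 3.0% of genes were called higher. It rose no further in the 521 genes above 65%, at 0.19 with 0.96% called higher. GC-rich transcripts were found in 3 of the 8 factors: *HES6* has 66.2% GC (above 97.8% of tested genes), *LHX3* 64.3% (above 95.4%) and *INSM1* 63.2% (above 93.5%). The other 5 run from 45.4% in *ISL1* to 55.0% in *POU4F3*, and the median over tested genes was 47.7%. Among the 450 genes within 1 percentage point of its GC content, *LHX3* lay above 82.0% in fold change, where the median was 0.21. *HES6* lay above only 9.16% of its 273 such neighbours, whose median was also 0.21, so that these GC-rich mRNAs sat on opposite sides of genes of like composition. *INSM1* was above 42.8% of its 530 neighbours, and *ATOH1* above only 17.2% of its 909. The remaining factors were above 25.4% to 50.7% of theirs.

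After correction for GC content the log2 fold change of *LHX3* was 0.31 with an edgeR adjusted p of 0.375, and that of *HES6* was -0.37 with an adjusted p of 0.319, in a fit where 0.967% of genes passed the adjusted threshold alone. *INSM1* turned from 0.14 to -0.03. With both the correction and the replicate block, *HES6* was at -0.37 (edgeR adjusted p = 3.6e-06), *LHX3* at 0.31 (adjusted p = 0.000842) and *ATOH1* at -0.17 (adjusted p = 0.0113), where 11.9% of genes passed it. None of the 8 came to 1.5-fold there.

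**Figure D4:**
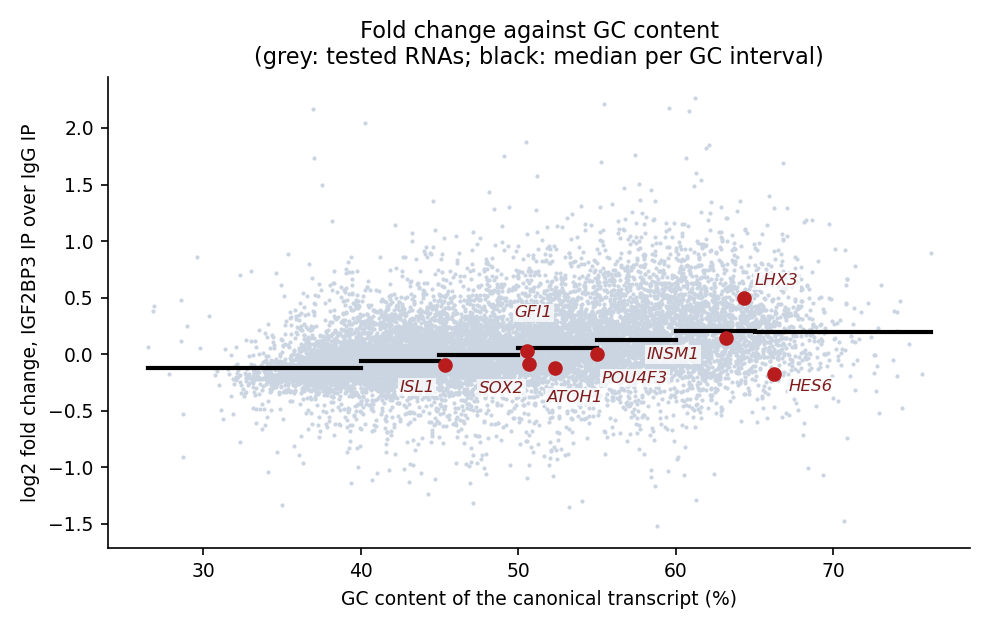
Log2 fold change (IGF2BP3 IP over IgG IP) against the GC content of the canonical transcript in percent, with grey points for tested genes, black lines for the median in each GC interval and red points for the 8 lineage factors. *LHX3* lies above and *HES6* below the median of genes of like GC content, and the other 6 lie closer to it.

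The sequence motifs did not order the 8 mRNAs by fold change. Over whole transcripts *LHX3* had 7.55 GGAC per kb, above 93.4% of tested genes, and *HES6* had 5.85 (above 81.9%) with the opposite sign of change. *SOX2* had 5.18, *ISL1* 4.18 and *GFI1* 3.07 per kb, while *INSM1*, *ATOH1* and *POU4F3* had 2.81, 2.71 and 2.33, and the median was 3.51. At least 1 copy occurs in 98.0% of tested transcripts. *NEUROD1*, which could not be tested, had 4.81 per kb over its transcript and 11 copies in 1068 coding bases. CATT, one of the CAT-based motifs reported for IGF2BP proteins, was scarce in the 3 GC-rich mRNAs, with *LHX3* above 3.2%, *HES6* above 4.6% and *INSM1* above 6.7% of tested transcripts. CATC was not scarce in *HES6* (above 44.2%) or *LHX3* (above 36.2%) and was lower in *INSM1* (above 16.3%). CATA lay above 19.5% in *LHX3* and 16.8% in *INSM1* and was absent from *HES6* and also from *SOX2*. Among the other tested members, CATT ran from above 16.5% in *POU4F3* to above 76.7% in *ISL1*. CATC ran there from above 15.1% in *SOX2* to above 79.9% in *ATOH1*. All motifs were counted on the sense strand of the annotated transcripts, and GC content sets part of each count.

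In the families and the pathway around the lineage factors, 82 listed genes were followed, of which 60 passed the filter. Of these, 3 rose in IGF2BP3 IP and none fell (edgeR, both thresholds), or 5.0% beside the 1.16% of all tested genes, and DESeq2, the replicate block and the fit without both replicate 1 libraries gave 3 and 0 as well, where 2.22%, 3.56% and 3.18% of all genes tested were higher. None of the 3 passed when replicate 2 or 3 of either group was left out. At an unadjusted p under 0.05, 6 of the 60 were higher and none lower, while 12.8% of all tested genes passed in either direction. The median log2 fold change of the 60 was 0.01, beside -0.01 over all tested genes.

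The bHLH list held relatives, E-protein partners and antagonists of *ATOH1*, *NEUROD1* and *HES6*, with 17 of 24 tested and a median log2 fold change of -0.07. *NHLH1*, a neuronal bHLH factor, rose with 54.1, 59.0 and 61.4 normalized CPM in IgG IP and 79.3, 107 and 98.3 in IGF2BP3 IP, a log2 fold change of 0.71 (SE 0.12, edgeR adjusted p = 0.0317). It was the only one of the list to pass. The most abundant were *ID4*, an inhibitor of bHLH dimers, at a mean of 87.2 TPM in IgG IP, and the E-proteins *TCF12* at 79.3 and *TCF4* at 48.8, all below *ATOH1*.

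In the SOX, POU and LIM list 16 of 24 genes were tested, with a median of 0.01. *SOX12*, a SOXC factor, rose with 16.3, 23.3 and 23.1 normalized CPM in IgG IP and 42.6, 54.2 and 52.8 in IGF2BP3 IP, a log2 fold change of 1.25 (SE 0.16, edgeR adjusted p = 0.0117). The 3 most abundant, *LHX9* (73.1 TPM), *SOX4* (47.1 TPM) and *POU4F1* (43.7 TPM), did not pass. *SOX1*, *SOX9* and *SOX21* were at 0 counts throughout, and *SOX2* had the highest mean TPM of the SOX genes.

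Of the SNAG zinc finger, MYT and corepressor list, 11 of 16 were tested with a median of -0.05, and none passed. *HDAC2* and *KDM1A*, enzymes that SNAG-domain repressors are known to recruit, had 664 and 130 TPM in IgG IP, and *MYT1*, a neuronal zinc finger factor, had 42.3. *REST*, the repressor of neuronal genes, had 0 to 1 counts.

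The Notch list had 16 of 18 genes tested and a median of 0.27, the highest of the 4 lists. *NUMBL*, an adaptor that restrains Notch, rose with 18.3, 18.0 and 19.9 normalized CPM in IgG IP and 26.7, 30.6 and 29.1 in IGF2BP3 IP, a log2 fold change of 0.62 (SE 0.11, edgeR adjusted p = 0.0374). With the GC correction *NUMBL* was at 0.47 (adjusted p = 0.112) and *NHLH1* at 0.61 (adjusted p = 0.0577), and *SOX12* alone of the 3 passed, at 1.09 (adjusted p = 0.0203). *RBPJ*, the DNA-binding effector of Notch, led in level at 104 TPM, followed by the glycosyltransferase *MFNG* at 34.9 and *NUMB* at 19.3. The receptor *NOTCH2*, named here after its value was seen, with 3 to 26 counts, had the highest log2 fold change of the list at 1.30 (SE 0.65) and did not pass (edgeR adjusted p = 0.461).

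**Figure D5:**
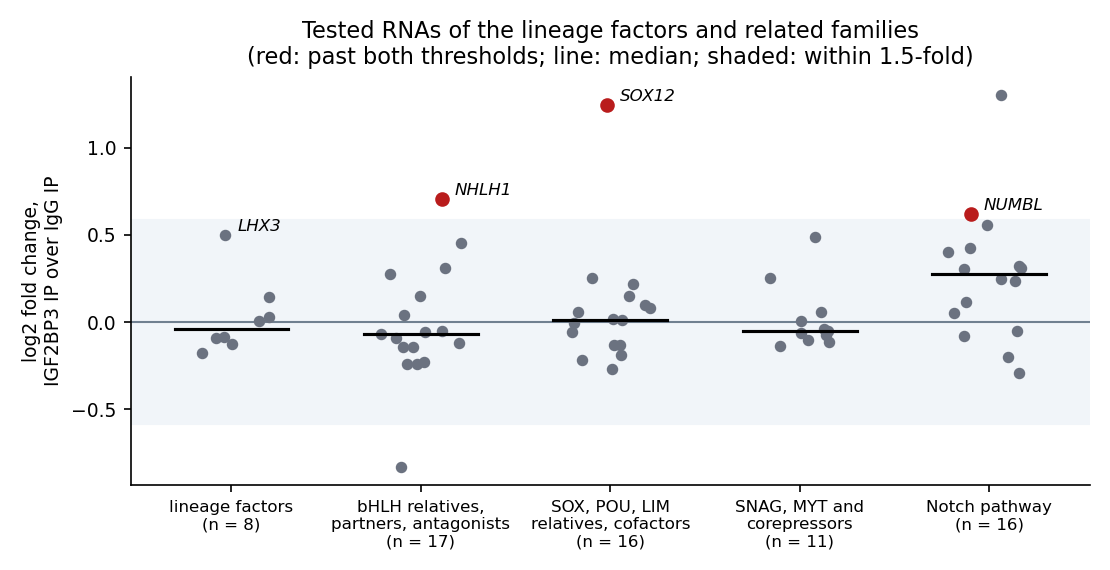
Log2 fold change (IGF2BP3 IP over IgG IP) of the tested members of the lineage factors and of the 4 related lists, 1 point per gene, with a line for each median, shading for changes within 1.5-fold and red for the genes past both thresholds. *NHLH1*, *SOX12* and *NUMBL* are red, no lineage factor is, and the unlabelled Notch point above them is *NOTCH2*.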

How the data were processed

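RIP-seq of WaGa cells, 3 IgG IP and 3 IGF2BP3 IP libraries, was grouped by the sample titles. Per the labels and the methods, the authors aligned paired 150 bp reads to GRCh38 with STAR 2.7.9a and quantified GENCODE version 37 genes with RSEM. They deposited whole-number counts per gene, without normalization, and TPM and FPKM values, which are scaled to depth and length. The program that made the counts and its use of strand are not given in the sources used here, so overlapping genes are uncertain. The TPM of a library are shares of a fixed total, in which a few abundant RNAs move all others, so TPM served to rank genes and in an alternative fit, and FPKM only for implied lengths.

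Counts (9758759 to 14886414 per library) were tested over the 14507 genes that filterByExpr kept, after TMM normalization, by the edgeR 4.0.16 quasi-likelihood test (R 4.3.3, condition only). A call needed an adjusted p (Benjamini-Hochberg) under 0.05 and a change of 1.5-fold or more. The biological coefficient of variation was 13.37%. Normalized CPM, counts scaled to depth, use TMM library sizes. Confidence intervals are 95%. Single mRNAs were also compared by an exact two-sided permutation test. The replicates are called independent in the design text without naming separate cultures, so p-values measure the spread between these libraries, which may be technical. No 2 libraries of the same group agreed within sampling noise.

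Deviations from the group means correlated over genes at 0.57, 0.28 and 0.23 between libraries of the same number (1, 2 and 3). Replicate 2 of one group and 3 of the other gave 0.27 and 0.28. The values thus link the replicate 1 libraries but do not pair replicates 2 and 3. The labels do not say whether libraries of the same number belong together. A fit with the number as a block was run as an alternative. Alternatives were DESeq2 1.42.0, RLE factors, a minimum of 10 counts per library, no filter beyond 1 count, library totals, log2(TPM + 1) or log2(TPM + 0.1) with limma-trend (version 3.58.1), a loess correction for GC content (span 0.5) with and without the block, leaving out each library, and, added after the data were seen, leaving out both replicate 1 libraries. The edgeR fits with all libraries and DESeq2 were also run on simulated counts, which held no replicate or GC effect and so cannot judge how the fits handle these. The limma-trend fits on TPM and the fits with libraries left out were not run on them.

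Positions and transcript features came from GENCODE version 44 on GRCh38. Of the tested genes, 14479 had a transcript there. The members and lists were chosen with earlier results of these data known. Named were the 9 members, genes over their exons, called genes and the 3 most abundant of each list, the gene most alike to each member, markers, *HMGA1* and *ZMIZ1*. *NOTCH2*, *REST* and genes at 0 counts were named after their values were seen. Some items of the marker and related lists are not reported here.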

Additional observations from a re-analysis of the deposited data

How the results depend on the processing

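Under all alternatives none of the 8 tested lineage factor mRNAs was called in either direction. The genes higher in IGF2BP3 IP, 169 by edgeR, numbered 281 with DESeq2, 359 with no filter beyond 1 count, 110 with the GC correction, 517 with the replicate block, 347 with GC correction and replicate block, 466 without both replicate 1 libraries, 0 by limma-trend on log2(TPM + 1) and 0 on log2(TPM + 0.1), and 0 to 244 with 1 library left out. The genes lower, 0 by edgeR and 0 with any 1 library left out, were 1 with no filter, 15 with the replicate block, 24 with GC correction and replicate block, and 8 without both replicate 1 libraries. Of the related lists, 3 higher became 1 with the GC correction, 0 and 0 with limma-trend, and 0 to 3 with 1 library left out.

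Directions turned under some alternatives for every tested member except *HES6* and *LHX3*. *POU4F3* (0.00) was at -0.0057 with DESeq2, -0.00786 with RLE factors, -0.00686 with no filter, -0.0789 with GC correction, -0.0799 with GC correction and block, -0.0235 without both replicate 1 libraries, and -0.0496 to 0.0403 with 1 library left out. *INSM1* (0.14) was at -0.0292 with GC correction and -0.0267 with GC correction and block. Limma-trend on log2(TPM + 1) and log2(TPM + 0.1), which shifted the median of all genes by 0.11 and 0.13, gave 0.0278 and 0.0279 for *ATOH1*, 0.0742 and 0.0753 for *SOX2*, and 0.0458 and 0.0460 for *ISL1*. With 1 library left out *ISL1* ran from -0.19 to 0.00862 and *GFI1* from -0.0509 to 0.11. The replicate block turned no direction among the 8. In counts per kb of annotated transcript, 5 of 9 members kept their place in the order of levels.

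*LHX3* stayed between 0.31 and 0.65 under all alternatives and between 0.38 and 0.58 with 1 library left out, where its adjusted p was 0.0561 to 0.353. Its adjusted p was 0.00215 with no filter, 0.0555 with library totals, 0.119 with RLE factors, 0.565 and 0.637 by limma-trend. The limma-trend estimates of 0.635 and 0.651 were above the 1.5-fold minimum, a log2 of 0.585. The cause of these shifts was not tested. With 3 libraries a group the exact test cannot go below 0.1.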

Other observations

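Over the 6 libraries, the tested RNA whose log2 normalized CPM followed each member most closely (Pearson correlation, described with no test) was *CACNB3* for *LHX3* (r = 0.998), *MAP3K7* for *ATOH1* (r = 0.998), *MAGI1* for *SOX2* (r = 0.996), *SIRT6* for *POU4F3* (r = 0.988), *ARNT2* for *INSM1* (r = 0.999), *PICALM* for *ISL1* (r = 0.997), *ZNF134* for *HES6* (r = 0.992) and *ATP10D* for *GFI1* (r = 0.998), the last with only 0 to 16 counts. For each member 44 to 210 RNAs had an r above 0.95. All are over the same 6 libraries, so the differences between groups and between replicate 1 and the others enter each value, and their part in it was not tested. *CACNB3*, a calcium channel subunit, had a log2 fold change of 0.49, beside 0.50 for *LHX3*.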
